A study of Bos taurus with 12 samples.

Results

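Blastocysts grown from slaughterhouse oocytes that had matured in culture before intrafollicular transfer (IFOT-M) were compared with blastocysts from oocytes transferred while still immature, which matured inside the follicle of a recipient heifer (IFOT-IM). The comparison took the 6 arrays whose titles carry these transfers, 3 in each group, of 12 arrays in all, and the other 6 held blastocysts produced wholly in vitro (VITRO) or flushed after superovulation (VIVO). Every pool was separate, held 15 to 20 blastocysts, and gave 15 ng of total RNA to its array. Both IFOT groups shared the slaughterhouse oocyte source, insemination of the recipient with fresh semen of the same bull, fertilization and early development in the oviduct, and collection by flushing of the uterus. IFOT-M oocytes went into a preovulatory follicle after the last GnRH injection according to the study's design text, although the source label of these arrays names dominant follicles. IFOT-IM complexes, oocytes still in their cumulus cells, went into a dominant follicle. The follicle's stage, the time spent in it and the timing of insemination therefore differed along with the site of maturation, and these cannot be told apart. VITRO blastocysts came from slaughterhouse oocytes matured, fertilized and cultured in vitro, and VIVO blastocysts from oocytes of superovulated donors. An IFOT pool may also hold an embryo of the recipient's own oocyte, which limits it as a model of the transferred oocytes.

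During maturation the oocyte resumes meiosis, stores RNA and protein for the first cleavages, and exchanges metabolites with the cumulus cells around it. Bovine oocytes receive cholesterol and part of their energy substrates through these cells. The embryo makes most of its own RNA only after several cleavages, and by the blastocyst stage it has formed an epithelial trophectoderm, which pumps fluid into the cavity, and an inner cell mass from which epiblast and hypoblast arise. A difference measured at this stage is thus read long after maturation has ended.

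The deposited values are probe set levels on a log2 scale after the authors' RMA normalization, and a difference of 1 on this scale is a 2-fold difference. Differences are given as IFOT-M minus IFOT-IM with the standard error (SE) of a limma fit to all 12 arrays. Of 26773 probe sets, 24415 were tested, of which 17553 carried exactly 1 gene symbol. A probe set counted as a differentially expressed gene (DEG) when it differed more than 2-fold with a raw p below 0.05 and a false discovery rate (FDR) below 0.1. With 3 arrays per group the precision of each value is limited. No background measure accompanies the values, so whether a low probe set was detected is unknown. Nothing in the labels places the pools in a batch.

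IFOT-IM replicate 1 stood apart from the other 5 arrays. Its correlation with IFOT-IM replicates 2 and 3 over the probe sets tested was 0.967 and 0.965, whereas those replicates correlated at 0.976 with each other and at 0.975 to 0.978 with the IFOT-M arrays. IFOT-M replicate 3 was the nearest array to both of them. The spread of the array was also narrower, with an SD of 1.55 and a 95th percentile of 5.27, against 1.64 to 1.68 and 5.53 to 5.64 on the other 5. The median SD within IFOT-IM was 0.184 over 3 arrays and 0.125 over the 2 left without this one, and it was 0.150 over 3 in IFOT-M. An SD of 2 values tends to be lower than one of 3, so the 0.125 cannot be set directly against the others. The counts, the list medians and most of the leading differences are therefore given with and without IFOT-IM replicate 1, and without it IFOT-IM rests on 2 pools.

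The 6 arrays carried the transcripts that define a blastocyst. SOX2, a factor of the inner cell mass and epiblast, lay between 6.07 and 6.22, and POU5F1, its partner, between 5.25 and 5.80. KRT18, a keratin of the trophectoderm, averaged 8.89 in IFOT-M and 8.43 in IFOT-IM, and GATA3, a trophectoderm factor, between 4.70 and 4.92. The hypoblast factor GATA6 reached 7.87 to 8.19. CDX2, GATA4 and SOX17, which mark trophectoderm and hypoblast, were low, at 1.14 to 2.29, beside array medians of 1.84 to 1.93. Markers of cells that could travel with the embryos lay on both sides of those medians. Below the median were 7 of 14 markers of oviduct and endometrium epithelium, 10 of 18 of leukocytes, 5 of 8 of erythrocytes and 18 of 24 of cumulus and granulosa cells. The oviductal glycoprotein OVGP1 lay at 1.17 to 2.06, the leukocyte antigen PTPRC at 1.17 to 1.43, the FSH receptor of granulosa cells FSHR at 1.02 to 1.46 and the cumulus hyaluronan synthase HAS2 at 0.49 to 1.54. The globin HBB of erythrocytes was higher, at 3.09 to 3.93, as were ALAS2, the erythroid enzyme of heme synthesis, at 2.42 to 3.04 and the monocyte receptor CD14 at 2.29 to 2.92.

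No probe set passed an FDR of 0.1 between IFOT-M and IFOT-IM in limma, and the smallest FDR was 0.321, that of ASCC1. A raw p below 0.05 was reached by 1855 of 24415 probe sets, or 7.6%, of which 964 were higher in IFOT-M (3.95%) and 891 lower (3.65%). Without IFOT-IM replicate 1 the FDR count was again 0, with 0.815 as the smallest FDR, and 1131 probe sets (4.63%) had a raw p below 0.05, 525 higher (2.15%) and 606 lower (2.48%). Of the 1855 probe sets, 747 (40.3%) still had such a p without the array, and all 1855 kept their sign. Leaving out IFOT-M replicate 1 instead gave 1146 (4.69%), while leaving out any other IFOT array gave between 1512 and 2232. In what follows a raw p is a description of the separation of the arrays, since none of these genes passed the correction.

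**Figure D1:**
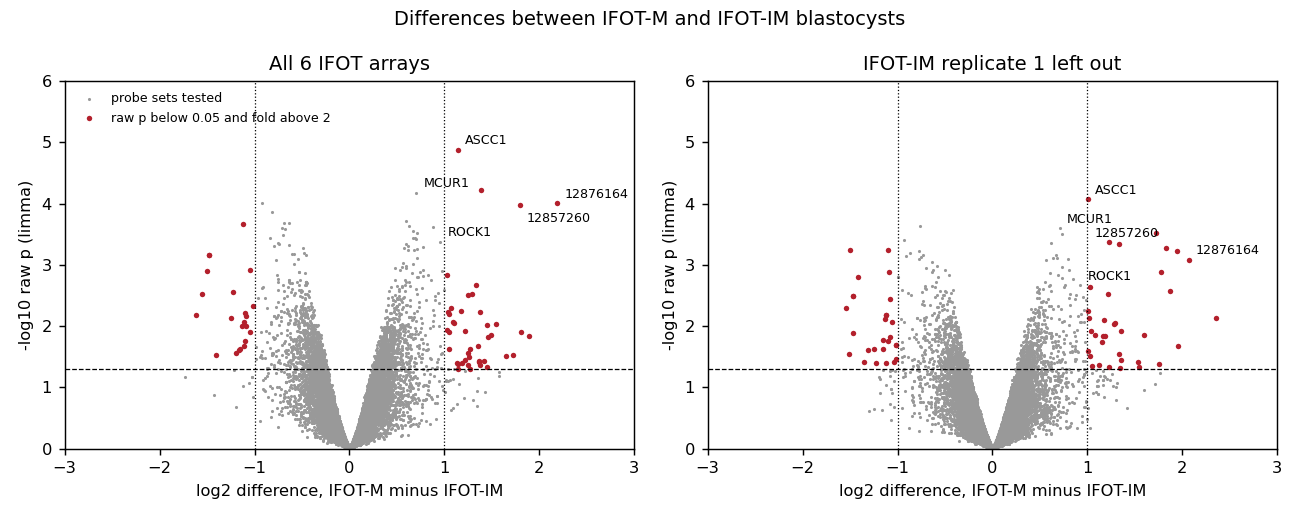
Each point is 1 of 24415 probe sets, placed by its log2 difference (IFOT-M minus IFOT-IM) and the negative log10 of its raw p in limma, with all 6 IFOT arrays (left) and without IFOT-IM replicate 1 (right). The dashed line marks a raw p of 0.05 and the dotted lines a 2-fold difference, and the 65 and 63 probe sets past both are red.

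The intervals show how large a difference the pools could still hold. The median size of a difference was 0.14, and 95% of probe sets lay below 0.46. The 95% confidence interval of a difference had a median margin of 0.35 on either side of the estimate, or 1.28-fold. For 22969 probe sets (94.1%) the whole interval lay within a 2-fold difference in either direction, and for 16177 (66.3%) within 1.5-fold. A 2-fold difference thus stayed within reach of the interval for 1446 probe sets, and 2 had an interval that lay wholly beyond it. Without IFOT-IM replicate 1 the median margin was 0.38 (1.30-fold), and 22686 intervals (92.9%) lay within 2-fold and 15343 (62.8%) within 1.5-fold.

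The differences followed the level of expression. In the tenth of the probe sets with the highest mean level the median difference was 0.17, and 371 had a raw p below 0.05 in the direction of IFOT-M against 73 in the other. In the tenth with the lowest level the median was -0.04, with 28 higher and 95 lower. Without IFOT-IM replicate 1 these medians were 0.07 and -0.01, and after quantile normalization of all 12 arrays they were 0.03 and -0.01. Probe sets with a raw p below 0.05 have their extreme array in IFOT-IM largely by the way they were chosen. Replicate 1 was the lowest of the 6 arrays at 71.1% of those higher in IFOT-M and the highest at 56.5% of those lower. Gene lists of strongly expressed genes below are to be read beside this shift.

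**Figure D2:**
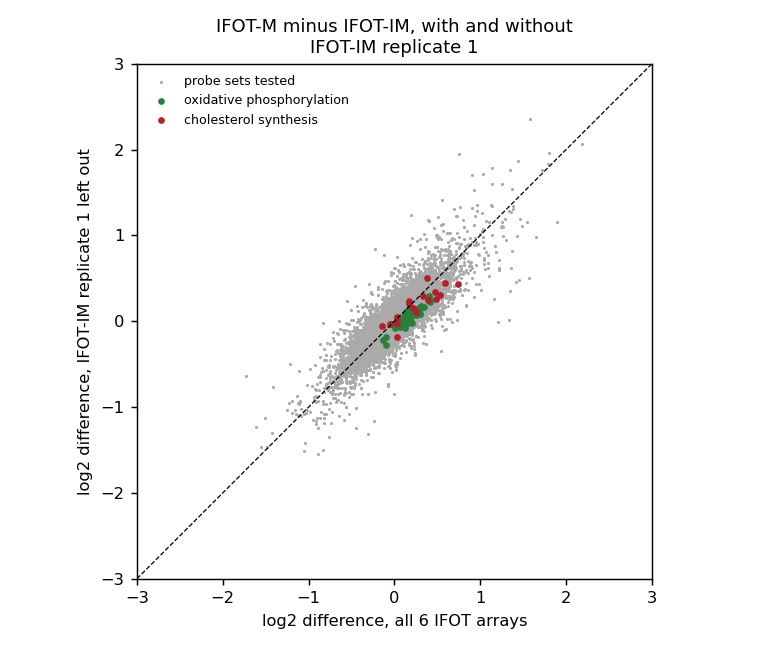
Each grey point is a probe set, placed by its log2 difference (IFOT-M minus IFOT-IM) with all 6 IFOT arrays (horizontal) and without IFOT-IM replicate 1 (vertical). The oxidative phosphorylation genes (green) lie below the dashed line of equal values, with a median of 0.17 against 0.07, while the cholesterol synthesis genes (red) had medians of 0.25 and 0.23.

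Both a raw p below 0.05 and a difference above 2-fold were found for 65 probe sets, 0.266% of those tested, 43 higher (0.176%) and 22 lower (0.0901%) in IFOT-M. Of these, 62 (95.4%) carried no gene symbol, against 25.5% of all probe sets tested, 1 carried several symbols, and the other two were ASCC1 and the olfactory receptor OR8B1S. Of the 65, 28 (43.1%) met the same criteria without IFOT-IM replicate 1. The largest difference was that of an unnamed probe set with ID 12876164, which read 4.86, 3.93 and 5.42 in the IFOT-M pools and 2.31, 3.12 and 2.22 in the IFOT-IM pools, a difference of 2.19 ± 0.39 (SE, n = 3 per group, FDR 0.394). Probe set 12857260, also unnamed, read 3.93, 3.91 and 3.75 in the IFOT-M pools and 2.14, 2.08 and 1.99 in the IFOT-IM pools, a difference of 1.79. These were the 2 probe sets whose interval lay wholly beyond 2-fold. Probe sets 12911187 and 12915535 held the same values on every array, so they count once as a measurement, and their difference was -1.48.

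ASCC1, which encodes a subunit of the activating signal cointegrator complex, was the named gene with the largest difference. It read 4.13, 4.39 and 4.24 in the IFOT-M pools and 2.84, 3.28 and 3.22 in the IFOT-IM pools. All 3 IFOT-M pools lay above all 3 IFOT-IM pools, and the gap was there without replicate 1 as well. The difference was 1.14 ± 0.17 (SE), a 2.21-fold higher level, with a 95% confidence interval from 0.78 to 1.50 and an FDR of 0.321, and it was 1.01 without IFOT-IM replicate 1. The mean was 5.26 in VIVO and 3.29 in VITRO, so that IFOT-IM lay beside VITRO and IFOT-M between VITRO and VIVO.

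Among the 17553 probe sets tested with 1 symbol, 552 were higher and 407 lower in IFOT-M with a raw p below 0.05 and groups that did not overlap. Over all 24415 probe sets tested, with any raw p and any symbol, the groups did not overlap at 14.2%, 7.54% higher and 6.67% lower. That criterion is wider, so these shares are no direct background for the counts. The genes described next are leaders among the counted probe sets, by the size of the difference.

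A first set of leaders kept its difference without IFOT-IM replicate 1. ROCK1, a kinase that drives contraction of the actin and myosin network, read 3.65, 3.65 and 3.15 in the IFOT-M pools and 2.47, 2.63 and 2.48 in the IFOT-IM pools, a difference of 0.96 ± 0.20 that became 0.93. BMPR1A, a type I receptor for bone morphogenetic proteins, read 2.26, 2.16 and 2.35 against 1.59, 1.57 and 1.49, a difference of 0.71 ± 0.15 and of 0.73 without the array. MCUR1, which regulates calcium uptake by mitochondria, read 2.53, 2.42 and 2.40 against 1.75, 1.75 and 1.74. In MCUR1 the IFOT-IM pools were almost equal, and the difference was 0.70 ± 0.12, or 0.71 without replicate 1. The splicing factor gene SCNM1 differed by 0.72 ± 0.18, the transcription initiation gene TAF9B by 0.68 ± 0.15 and the zinc finger gene ZFP1 by 0.70 ± 0.19, and each moved by less than 0.05 when the array was left out. POLD1, the catalytic subunit of DNA polymerase delta, read 4.25, 4.12 and 4.02 against 3.61, 3.35 and 3.44. Its difference was 0.67 ± 0.13, and 0.74 without replicate 1, but a second and weaker probe set of POLD1 differed by -0.01. The zinc finger gene ZNF729 (0.77 ± 0.25) likewise had a second probe set in the other direction, at -0.28. For ROCK1, BMPR1A, MCUR1, SCNM1 and POLD1 the IFOT-IM mean lay nearer to VITRO than to VIVO, while IFOT-M lay nearer to VIVO. In TAF9B the IFOT-IM mean of 1.72 lay nearer to VIVO (1.81) than to VITRO (1.56). Most probe sets shared the pattern of opposite signs. VITRO minus VIVO had the sign of IFOT-M minus IFOT-IM at 35% of all tested and at 18.4% of those with a raw p below 0.05.

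A second set of leaders drew much of its difference from IFOT-IM replicate 1. HPRT1, the purine salvage enzyme, read 6.11, 5.59 and 5.92 in the IFOT-M pools and 3.79, 5.33 and 5.56 in the IFOT-IM pools. The low value was that of replicate 1, and the difference of 0.98 ± 0.39 was 0.43 without it. GCSH, the H protein of the glycine cleavage system, read 8.53, 8.26 and 8.16 against 6.63, 7.83 and 7.79, a difference of 0.90 ± 0.25 that became 0.51. LOC783509 behaved the same way, with 0.95 ± 0.31 and 0.44. The G protein subunit GNG2 (0.88 ± 0.17), the metalloelastase MMP12 (0.86 ± 0.22), the Ras scaffold CNKSR1 (0.77 ± 0.19), the mitochondrial nuclease REXO2 (0.74 ± 0.18) and the ciliary gene CFAP54 (0.73 ± 0.22) kept 0.68, 0.56, 0.55, 0.53 and 0.51. A second probe set of CNKSR1 differed by 0.10.

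**Figure D3:**
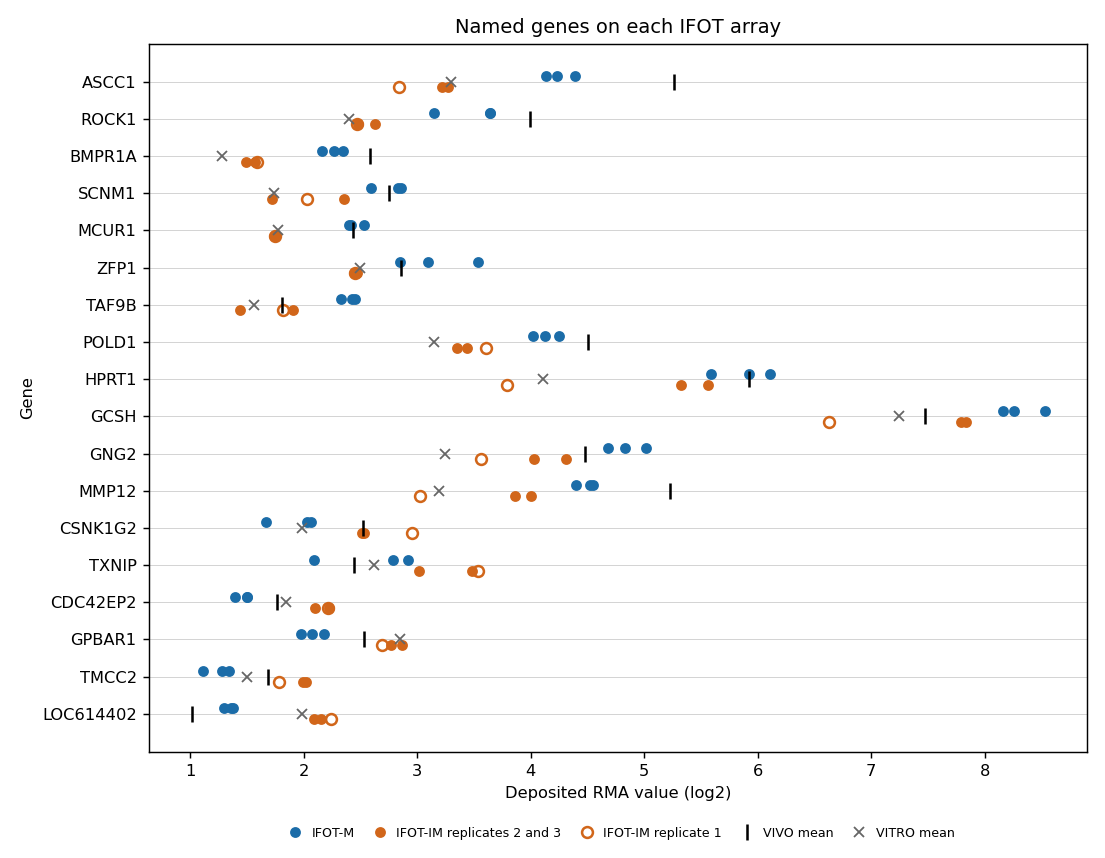
Deposited log2 values of 18 named genes on each IFOT-M array (blue) and IFOT-IM array (orange, with replicate 1 as an open circle), beside the VIVO mean (bar) and the VITRO mean (cross). These genes come from leaders chosen for groups that did not overlap, with or without IFOT-IM replicate 1, so the gap in each row follows largely from that choice. In HPRT1 and GCSH the open circle lies far below the other IFOT-IM points, and in MCUR1, ZFP1 and BMPR1A it lies among them.

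The leaders in the other direction had somewhat smaller differences and mostly lay at low levels. TXNIP, an inhibitor of thioredoxin that also restrains glucose uptake, read 2.09, 2.79 and 2.92 in the IFOT-M pools and 3.54, 3.02 and 3.48 in the IFOT-IM pools, a difference of -0.75 ± 0.21 and of -0.65 without replicate 1. CSNK1G2, a casein kinase, differed by -0.75 ± 0.16 (-0.61 without replicate 1) and CDC42EP2, an effector of the GTPase CDC42, by -0.71 ± 0.14 (-0.70). GPBAR1, a cell surface receptor for bile acids, read 2.18, 1.98 and 2.08 against 2.69, 2.77 and 2.87. Its difference was -0.70 ± 0.14, and -0.74 without the array. TMCC2, a membrane protein of the endoplasmic reticulum, differed by -0.69 ± 0.13 and -0.76. The desaturase family gene FADS2B differed by -0.77 ± 0.31 (-0.63), and the olfactory receptor gene OR4F58B by -0.80 ± 0.32 (-0.75). The microRNA genes MIR346 and MIR2310 differed by -0.80 ± 0.25 (-0.66) and -0.69 ± 0.21 (-0.77). Of the 4 loci among these leaders that carry only a LOC number, LOC614402 had the tightest groups, at 1.38, 1.30 and 1.36 against 2.24, 2.15 and 2.09, a difference of -0.81 ± 0.15 (-0.77). LOC613867, LOC507787 and LOC509513 differed by -0.96, -0.78 and -0.71 (-0.75, -0.78 and -0.53), and a second probe set of LOC509513 by -0.03.

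Without IFOT-IM replicate 1 further genes entered the leaders, all of them on 3 arrays against 2. The thioredoxin-like gene NXNL1 differed by 0.81, the microRNA gene MIRLET7A-2 by 0.80 and LOC510795 by 0.84, and with all 6 arrays these were 0.54, 0.64 and 0.59. LOC327709 differed by -0.91, the olfactory receptor genes OR2L3C and OR2A68 by -0.79 and -0.76, the secretoglobin SCGB1A1 by -0.73, the sperm acrosome gene SPACA4 by -0.72 and the dopamine receptor DRD5 by -0.71. Levels of these genes were mostly below the array median, and their differences with all 6 arrays lay between -0.66 and -0.48. Of the 1189 probe sets with 1 symbol and a raw p below 0.05, 472 kept such a p without replicate 1, 224 higher and 248 lower, and 51 of these differed by more than 1.5-fold both times.

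Cholesterol synthesis was the list with the largest median difference. Of 17 genes tested, 15 were higher in IFOT-M, 8 of them with a raw p below 0.05, and none with such a p was lower, beside 3.95% and 3.65% of all probe sets. None passed the FDR. The median difference was 0.25, against -0.01 over all probe sets, 0.23 without IFOT-IM replicate 1 and 0.21 after quantile normalization. Without that array 4 of the 17 had a raw p below 0.05, which were FDFT1, MSMO1, HSD17B7 and SC5D.

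The early steps of the pathway showed small differences. Of the enzymes that turn mevalonate into isoprenoid units, MVK differed by 0.25 ± 0.21, PMVK by 0.17 ± 0.17, MVD by 0.03 ± 0.12 and IDI1 by 0.22 ± 0.19, and their groups overlapped. GGPS1, which makes geranylgeranyl diphosphate on a side branch, differed by 0.47 ± 0.20 (0.34 without IFOT-IM replicate 1).

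The steps to squalene and beyond held the larger values. FDFT1, the squalene synthase, read 4.93, 4.62 and 4.68 in the IFOT-M pools and 3.89, 4.29 and 4.30 in the IFOT-IM pools, a difference of 0.59 ± 0.15 and of 0.45 without replicate 1. SQLE, the squalene epoxidase, read 4.95, 4.49 and 4.63 against 3.72, 4.35 and 4.40, with differences of 0.53 ± 0.18 and 0.31. In both genes the groups did not overlap, and the lowest value was that of IFOT-IM replicate 1. LSS, which closes the sterol rings, differed by 0.03 ± 0.12 and CYP51A1, which starts the removal of methyl groups from lanosterol, by 0.17 ± 0.18.

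MSMO1, the sterol methyl oxidase, had the largest difference of the list. It read 4.96, 4.97 and 4.68 in the IFOT-M pools and 3.52, 4.43 and 4.44 in the IFOT-IM pools, which is 0.74 ± 0.21 with all arrays and 0.43 without replicate 1. NSDHL and HSD17B7, which act in the same demethylation, differed by 0.48 ± 0.20 and 0.38 ± 0.17, and by 0.26 and 0.51 without the array. In HSD17B7 replicate 1 held the highest IFOT-IM value, inside the range of IFOT-M. Over the 17 genes replicate 1 was the lowest of the 6 arrays in 8 and the highest in 1. Of the last enzymes, the isomerase EBP differed by 0.39 ± 0.14 (0.24 without replicate 1) and the desaturase SC5D by 0.33 ± 0.12 (0.29). DHCR7, a reductase of the last step, read 5.10, 4.94 and 4.85 against 4.50, 5.14 and 5.16, a difference of 0.03 ± 0.19 that became -0.18 without replicate 1. The reductases TM7SF2 and LBR differed by -0.14 ± 0.14 and -0.05 ± 0.25. Other enzymes of the pathway were not analysed here.

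Both IFOT groups lay below VIVO in this list, with a median difference from VIVO of -0.54 in IFOT-M and -0.77 in IFOT-IM, comparisons that share the VIVO arrays. In VITRO the median was -0.17. MSMO1, for example, averaged 6.72 in VIVO and 5.94 in VITRO, above all 6 IFOT arrays.

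**Figure D4:**
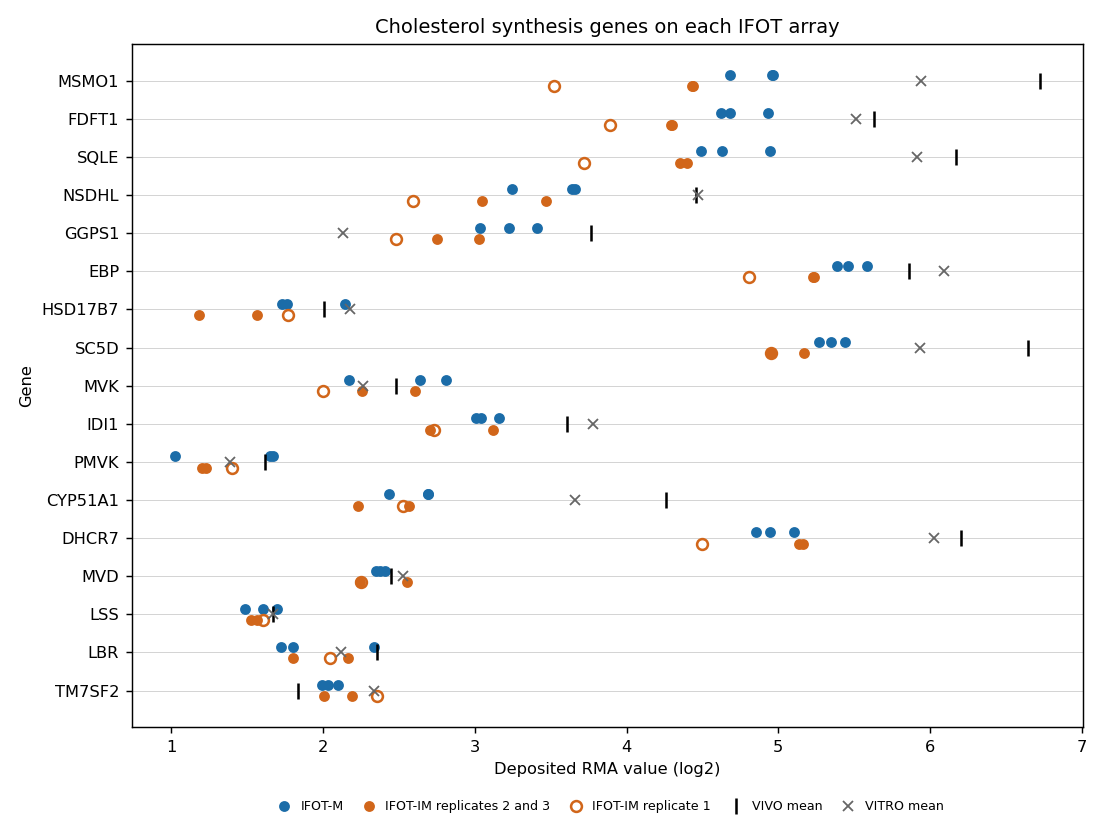
Deposited log2 values of 17 cholesterol synthesis genes on each IFOT-M array (blue) and IFOT-IM array (orange, replicate 1 open), with VIVO (bar) and VITRO (cross) means, ordered by their difference from 0.74 (MSMO1) to -0.14 (TM7SF2). In MSMO1, FDFT1 and SQLE the IFOT points lie below both means, and the blue points lie above the orange ones.

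The sterol sensing and transport genes had a median of 0.08 over 22 genes, 5 of them higher and 1 lower with a raw p below 0.05, and none with such a p without replicate 1. Over all probe sets 3.95% were higher and 3.65% lower at such a p. NPC2 and NPC1, which carry cholesterol out of lysosomes, differed by 0.48 ± 0.16 and 0.36 ± 0.17 (0.36 and 0.21 without the array), the esterifying enzyme SOAT1 by 0.38 ± 0.16 (0.23) and the lipoprotein receptor LRP2 by 0.33 ± 0.14 (0.16). MYLIP, which marks the LDL receptor for degradation, differed by -0.42 ± 0.18 (-0.45). SREBF2, the transcription factor that controls the synthesis genes, differed by 0.16 ± 0.17, and its regulators SCAP, INSIG1 and INSIG2 by 0.07, 0.08 and 0.27.

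Fatty acid synthesis and desaturation had a median of 0.23 over 21 genes, with 3 at a raw p below 0.05, all higher, beside 3.95%. Each gene of a list is counted by its probe set with the highest mean, and without replicate 1 the median was 0.10 and none of these had such a p. ACLY, which supplies cytosolic acetyl-CoA, differed by 0.59 ± 0.21 (0.28 without replicate 1), the desaturase SCD by 0.46 ± 0.16 (0.27) and the elongase ELOVL6 by 0.34 ± 0.14 (0.19). A second probe set of SCD differed by 0.64 ± 0.18 and, with a raw p below 0.05 also without replicate 1, by 0.41. FASN and ACACA, the core enzymes of the pathway, differed by 0.24 ± 0.15 and -0.04 ± 0.12. Lipid droplet and beta oxidation genes had a median close to 0, with HADH at 0.35 ± 0.13 (0.37) and PLIN5 at -0.36 ± 0.16 (-0.16).

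Lists of mitochondrial and protein handling genes, which are strongly expressed, had medians above 0 that were smaller without IFOT-IM replicate 1, and no gene of them passed the FDR. Of 51 oxidative phosphorylation genes, 46 were higher and 6 of these had a raw p below 0.05, with a median of 0.17, beside 3.95% of all probe sets. IFOT-IM replicate 1 was the lowest of the 6 arrays in 44 of the 51, beside 24.2% of all probe sets. Without it the median was 0.07 and 1 gene had such a p, and after quantile normalization the median was 0.04. The ATP synthase subunits ATP5PO and ATP5F1C differed by 0.42 ± 0.15 and 0.40 ± 0.13 (0.25 and 0.29 without the array), and COX5A of cytochrome c oxidase by 0.42 ± 0.16 (0.22). Heat shock chaperones had medians of 0.19 and, without the array, 0.09, with 3 and 1 of 24 genes higher at a raw p below 0.05. Genes of folding and stress in the endoplasmic reticulum had 0.14 and 0.06, with 5 and 0 of 33 higher. Ribosomal protein genes had 0.15 and 0.07, and 1 of 24 was higher both times, which is near the share over all probe sets. Without the array 1 ribosomal protein gene was also lower at such a p.

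Antioxidant genes had 6 of 28 higher at a raw p below 0.05 and 1 lower, with a median of 0.12, beside 3.95% and 3.65% of all probe sets. Without replicate 1 there was 1 higher, catalase, and 1 lower, with a median of 0.06, beside 2.15% and 2.48%. Catalase (CAT) read 2.69, 2.97 and 2.78 in the IFOT-M pools and 2.32, 2.28 and 2.40 in the IFOT-IM pools, a difference of 0.48 ± 0.17 and of 0.47 without replicate 1. PRDX5, SOD2, PRDX3 and TXN, which remove peroxides and superoxide or reduce other proteins, differed by 0.45, 0.44, 0.39 and 0.38, and by 0.27, 0.26, 0.27 and 0.21 without the array. A second probe set of PRDX3, in which the groups overlapped, differed by 0.19 and by -0.01 without it. The lower gene was TXNIP.

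Glucose uptake and glycolysis had 5 of 24 genes higher at a raw p below 0.05, beside 3.95% of all probe sets, and 1 without replicate 1, beside 2.15% (median 0.11 and 0.03). Among them were the muscle phosphofructokinase PFKM at 0.36 ± 0.15 (0.41 without the array) and the lactate transporter SLC16A1 at 0.28 ± 0.12 (0.22). Of the serine and asparagine synthesis genes and targets of ATF4, 4 of 26 were higher, led by the serine hydroxymethyltransferase SHMT2 at 0.52 ± 0.16, which differed by 0.43 without the array and was then the 1 gene with such a p. The median of this list was 0.04 and 0.05. Genes of G1 and S phase had 6 of 39 higher (median 0.09), with POLD1 and the replication licensing factor CDC6 at 0.52 ± 0.21 (0.47), and without the array POLD1 alone (median 0.05). Those of G2 and mitosis had 1 of 41, below the share over all probe sets, which was the cyclin CCNA2 at 0.28 ± 0.13 (0.16), and none without the array (medians 0.11 and 0.04).

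The lineage lists moved little as wholes, and single genes went both ways. In bulk pools fewer cells of a type and less RNA per cell cannot be told apart. NANOG, a factor of the epiblast, read 3.88, 3.80 and 3.85 in the IFOT-M pools and 4.21, 4.65 and 4.21 in the IFOT-IM pools, without overlap. Its difference was -0.52 ± 0.18, and -0.59 without replicate 1, and its mean was 3.39 in VIVO and 4.51 in VITRO. KLF5 and ZFP42, factors of the same list, differed by 0.40 ± 0.14 and 0.31 ± 0.11 (0.28 and 0.26 without the array), POU5F1 by 0.23 and SOX2 by -0.05, and the median of the 22 genes was 0.08, or -0.01 after quantile normalization. In the trophectoderm list 4 of 24 were higher at a raw p below 0.05 and 1 lower, beside 3.95% and 3.65% of all probe sets, and without replicate 1 there was 1 each way. The keratin KRT18 differed by 0.46 ± 0.14 (0.29) and the adaptor DAB2 by 0.41 ± 0.15 (0.26), while the keratin KRT8 differed by -0.04, CDX2 by -0.01 and GATA3 by 0.04. EOMES was the lower gene at -0.36 ± 0.14 (-0.40), at levels of 0.56 to 1.29. In the hypoblast list 9 of 24 were higher and 15 lower, with a median of -0.06 and -0.04 without replicate 1. Of these, 1 had a raw p below 0.05, GATA4 at -0.41 ± 0.15 (-0.44), and GATA6 differed by 0.03. Without replicate 1 there were 3 lower at such a p, beside 2.48% of all probe sets. They were GATA4, HNF4A (-0.34, and -0.28 with all arrays) and FOXA2 (-0.32 and -0.23).

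Genes of the blastocoel, which pump ions, pass water and seal the trophectoderm, had 5 of 27 higher at a raw p below 0.05, beside 3.95% of all probe sets, and a median of 0.09. Without replicate 1 these were 1, beside 2.15%, and 0.12. The water channels AQP11 and AQP3 differed by 0.55 ± 0.20 and 0.31 ± 0.13 (0.28 and 0.21 without the array), the catenin CTNNA1 by 0.47 ± 0.15 (0.36) and the junction scaffold TJP1 by 0.38 ± 0.16 (0.22). CTNNA1 read 3.72, 3.66 and 3.71 against 3.01, 3.19 and 3.47, and its second probe set differed by 0.33 (0.22). Among DNA methylation enzymes 3 of 18 were higher, and 1 without the array, led by the de novo methyltransferase DNMT3A at 0.44 ± 0.15 (0.29), and the median was 0.10 with and without replicate 1. Among 25 imprinted genes 2 were lower at a raw p below 0.05, beside 3.65% of all probe sets. They were H19 at -0.42 ± 0.17 (-0.39) and PHLDA2 at -0.42 ± 0.18 (-0.54). H19 read 0.87, 0.91 and 0.82 in the IFOT-M pools and 1.35, 1.67 and 0.83 in the IFOT-IM pools, so the groups overlapped. Maternal transcripts of the oocyte had a median of 0.02 over 30 genes, with the oocyte factor NOBOX lower at -0.39 ± 0.16 (-0.37). No gene of the interferon list (18 tested) or the apoptosis list (26) had a raw p below 0.05.

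Markers of other cells moved little and, gene by gene, mostly downward. Of 14 markers of oviduct and endometrium epithelium, 13 were lower in IFOT-M, with a median of -0.15 (-0.09 without replicate 1), and 1 of them, the ciliary factor FOXJ1, had a raw p below 0.05 at -0.49 ± 0.16 (-0.49). At such a p stood 7.14% of this list and 7.6% of all probe sets. The summed linear level of this list was 140.1 to 152.5 in IFOT-M and 133.8 to 156.0 in IFOT-IM, so the groups overlapped. The cumulus and granulosa markers had a median of -0.06 over 24 genes, the leukocyte markers -0.05 over 18 and the erythrocyte markers -0.15 over 8. Their summed levels were 276.3 to 287.9 against 191.4 to 260.5, 67.8 to 71.2 against 70.7 to 75.7, and 28.3 to 35.2 against 36.9 to 37.7. The groups did not overlap in the cumulus sum, which was higher in IFOT-M, or in the erythrocyte sum, which was lower. In the cumulus list the sum held PTGS2, HSD3B1 and CYP11A1, which are in the trophectoderm list as well. PTGS2 differed by 0.41 ± 0.17 (0.18). The part of these cells in the differences above was not tested.

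**Figure D5:**
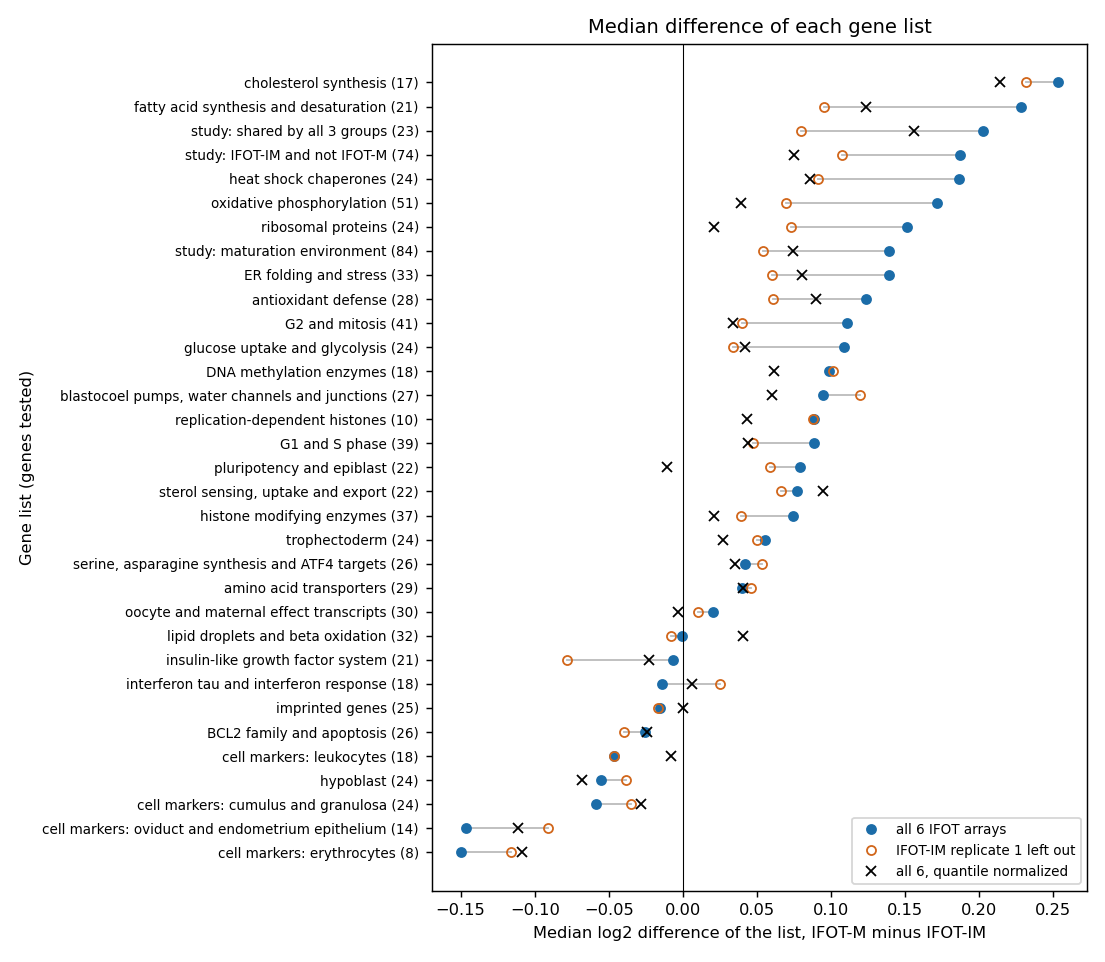
Median log2 difference (IFOT-M minus IFOT-IM) of each of 33 gene lists with all 6 IFOT arrays (filled), without IFOT-IM replicate 1 (open) and after quantile normalization (cross), with the number of genes tested in brackets. Names that begin with study mark lists the study chose on these arrays. Cholesterol synthesis stays at 0.21 or above on all 3 scales, while oxidative phosphorylation moves from 0.17 to 0.07 and 0.04.

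The study drew 3 gene lists from these same arrays by which group differed from VIVO, so their direction here is no independent evidence. The list assigned to the maturation environment, genes it called against VIVO in IFOT-M and not in IFOT-IM, had 84 of 109 genes tested. Of these, 69 were higher in IFOT-M than in IFOT-IM, 9 of them at a raw p below 0.05, and 1 was lower at such a p. Those past that p made up 11.9% of the list, beside 7.6% of all probe sets. The median difference was 0.14, and 0.05 without replicate 1. Without that array 2 were higher and 3 lower at such a p, beside 2.15% and 2.48% of all probe sets. The interval lay within 2-fold for 80 of the 84. Set against VIVO, the list had a median of -1.09 in IFOT-M and -1.23 in IFOT-IM, comparisons that share the VIVO arrays. LOC509034 had the largest difference, reading 3.85, 3.85 and 3.61 against 2.46, 3.46 and 3.36, or 0.68 ± 0.21 and 0.36 without replicate 1. SCD and SC5D belong to this list. P2RY2, a nucleotide receptor, was the lower gene at -0.31 ± 0.12, with 2.39, 2.46 and 2.26 against 2.64, 2.70 and 2.69.

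A second of these lists is that of genes called against VIVO in IFOT-IM and not in IFOT-M. It had 74 of 87 genes tested, 11 higher in IFOT-M at a raw p below 0.05 and none lower. Over all probe sets 3.95% were higher and 3.65% lower at such a p. The list's median was 0.19, and 0.11 without replicate 1 with 4 genes higher at such a p, beside 2.15%. REXO2 led it, followed by the mitochondrial protein HIGD1A at 0.55 ± 0.21 (0.28 without replicate 1), the inositol kinase IPMK at 0.49 ± 0.15 (0.38) and PEBP1, an inhibitor of Raf kinase, at 0.46 ± 0.18 (0.23). In HIGD1A the groups overlapped in this probe set, and the other two of the gene differed by 0.42 (0.26) and, without overlap, by 0.56 (0.58). Of 28 genes that differed in all 3 groups, 23 were tested, and 6 were higher at a raw p below 0.05, beside 3.95%. Without replicate 1 there was 1, beside 2.15%. The median of this list was 0.20 with that array and 0.08 without it. The asparagine synthetase ASNS differed by 0.43 ± 0.18, the first enzyme of serine synthesis PHGDH by 0.42 ± 0.19 and the dehydrogenase DLD by 0.31 ± 0.12, and without replicate 1 these were 0.21, 0.23 and 0.23.

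VITRO blastocysts also matured in vitro, and VIVO blastocysts in the follicle, so the sign of VITRO minus VIVO was set beside that of IFOT-M minus IFOT-IM, which uses other arrays. The signs were the same at 35% of all probe sets tested. They were the same at 342 (18.4%) of the 1855 probe sets with a raw p below 0.05 and at 24 (36.9%) of the 65 that also passed a 2-fold difference. The VITRO arrays, like IFOT-IM replicate 1, had a narrow spread, with an SD of 1.50 to 1.54 against 1.73 to 1.75 in VIVO, and the part of this in the signs was not tested. VITRO also differs from VIVO in oocyte source, fertilization and culture.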

How the data were processed

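The authors hybridised RNA of each pool to an Affymetrix Bovine Gene 1.0 ST array and deposited RMA values from Expression Console. The deposited values are taken as log2, from their range. RMA includes quantile normalization, yet the spread differed between arrays, so how that step was run is open. Genes were named from the platform annotation where a probe set carried 1 symbol (18457 of 26773; 688 carried several, 7628 none). The lowest 2358 by mean were left out, which keeps the number that the methods analysed. The 4 groups were fitted with limma 3.58.1 in R 4.3.3 (8 residual degrees of freedom, 7 without IFOT-IM replicate 1), with two-sided tests and FDR values of Benjamini and Hochberg. Named were the 12 largest differences each way among non-overlapping genes with 1 symbol and a raw p below 0.05, with and without that array, the genes the paper names for maturation, and up to 6 leaders of each list, plus other list genes cited for their role. The 33 lists held 1072 genes, of which 900 were tested, with 1 probe set per symbol, that with the highest mean. The comparison, members and lists were chosen with earlier results of these data known. Replicate numbers did not pair the pools. The pipeline was tested on simulated data. Raw intensities were not analysed here.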

Additional observations from a re-analysis of the deposited data

How the results depend on the processing

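No probe set passed an FDR of 0.1 under an unmoderated model of the IFOT groups, no filter, a stricter filter on the mean level, quantile or cyclic loess normalization, array weights, a robust variance with a trend, a covariate for RIN, an FDR below 0.05 or the replicate block. The fit of the 2 IFOT groups alone called 2 probe sets, both DEGs, unnamed 12857260 (FDR 0.00639) and 12883449 (0.0959), and 1 after quantile normalization. Testing 1 probe set per symbol called 1, ASCC1 (FDR 0.0238), among fewer tests. Leaving out 1 array gave 0 to 1 call and DEG, ASCC1 without VITRO replicate 2 and 12883449 without VIVO replicate 3. Counts at a raw p below 0.05 were 1215 under the stricter filter, where fewer were tested, 1525 after quantile normalization and 1131 to 2232 with 1 array left out. Those also above 2-fold numbered 25 in the unmoderated model, 2 with 1 probe set per symbol and 61 to 117 with 1 array left out. They reached 117 without IFOT-IM replicate 2 and 116 without IFOT-IM replicate 3. Under the stricter filter 12460 intervals lay within 2-fold. Without IFOT-IM replicate 1, the fit of both IFOT groups alone called 1 probe set as a DEG, before and after quantile normalization, and leaving out a further array gave 0 to 1, the call coming without IFOT-IM replicate 2. The stricter filter then gave 628 at a raw p below 0.05, 32 of them above 2-fold, and 12349 intervals within 2-fold, the unmoderated model 27 above 2-fold, 1 probe set per symbol 1, and a further array left out between 62 and 172. It was 105 without IFOT-M replicate 3, 172 without IFOT-IM replicate 2 and 128 without IFOT-IM replicate 3. Of 30 named genes, DHCR7 changed sign, at -0.081 after quantile normalization (in all groups or IFOT groups alone), -0.121 after cyclic loess, -0.069 with array weights, and -0.184 to 0.149 with 1 array left out, below 0 without IFOT-M replicate 1 (-0.035) or IFOT-IM replicate 1. Of 715 values of these genes 707 kept their direction and their side of the FDR, and the causes were not tested. Same-numbered IFOT-M and IFOT-IM pools deviated with correlations of -0.083 to 0.006, so the samples share only a number. The replicate block gave 1821 probe sets at a raw p below 0.05, 70 above 2-fold, 0 calls and a smallest FDR of 0.198.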

Other observations

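Further gene groups showed small differences. Over all probe sets tested 7.6% had a raw p below 0.05, and 4.63% without IFOT-IM replicate 1. The share was 6.9% in amino acid transporters, 2.7% in histone modifying enzymes and 4.76% in the insulin-like growth factor system, each below that 7.6%. It was 20% among the 10 replication-dependent histones. Of 29 amino acid transporters 2 had a raw p below 0.05, SLC36A1 at 0.51 ± 0.18 (0.41 without IFOT-IM replicate 1) and SLC3A2 at 0.32 ± 0.14 (0.14), and the median was 0.04. Of 37 histone modifying enzymes 1 did, the demethylase KDM1A at 0.36 ± 0.16 (0.14), with a median of 0.07. Of 21 genes of the insulin-like growth factor system 1 did, the RNA binding protein IGF2BP2 at 0.37 ± 0.13 (0.38), with a median of -0.01. Replication-dependent histones had 2 of 10, H2AC6 at 0.33 ± 0.13 and H2AC20 at 0.30 ± 0.13, a median of 0.09, and none without IFOT-IM replicate 1 (0.30 and 0.21). A further, weaker probe set of H2AC20 differed by 0.05.

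Of the 51 probe sets with 1 symbol that differed by more than 1.5-fold at a raw p below 0.05 with and without IFOT-IM replicate 1, some are given here that are not named above, and they were chosen after their values were seen. UBE2G2, a ubiquitin conjugating enzyme of the endoplasmic reticulum, read 4.54, 4.36 and 4.45 in the IFOT-M pools and 3.83, 3.76 and 3.88 in the IFOT-IM pools. SH3YL1, a lipid binding protein, read 3.51, 3.45 and 3.37 against 2.86, 2.87 and 2.80, although a weaker probe set of it differed by -0.26. The microRNA gene MIR2294 read 3.10, 3.03 and 3.11 against 2.37, 2.46 and 2.43. IL1RN, the antagonist of the interleukin 1 receptor, read 3.90, 3.85 and 3.90 against 2.97, 3.17 and 3.40, and ERG28, a scaffold of sterol synthesis enzymes, read 4.12, 3.88 and 3.91 against 3.41, 2.95 and 3.66. In the other direction PAG18, a pregnancy-associated glycoprotein, read 1.69, 1.91 and 1.72 against 2.36, 2.55 and 2.32, and TIA1, an RNA binding protein, read 2.80, 3.02 and 3.28 against 3.81, 3.65 and 3.59. In none of these 7 genes did the groups overlap, and none passed an FDR of 0.1 in limma.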
